A study of Homo sapiens with 2 samples.

Results

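The proteasome genes described here are the 42 genes whose probe sets carried a single gene symbol made of PSM, a letter from A to G and a number, out of 19775 genes named by a single symbol on the array. The name takes in the subunits of the core and the regulatory particle, the activators, an inhibitor, the assembly chaperones and the immunoproteasome, and the rule itself uses names, not measured values. Probe sets, the units of the array, are sets of short oligonucleotides that read the same transcript, and 81 of them stood for these genes, several for many of them. H322c, an established NSCLC cell line, was plated for 24 hrs and then cultured for 4 days in medium with 10% FBS and either 1 µM gefitinib, an inhibitor of the EGFR tyrosine kinase, or 0.1% DMSO as vehicle. RNA of each culture was hybridized to 1 Affymetrix U133 Plus 2.0 array. There were no replicates, so no test was possible, every difference describes these 2 arrays of 1 cell line, and their number limits the precision. Fewer cells of a kind and less RNA per cell cannot be told apart in such RNA.

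The proteasome degrades proteins tagged with ubiquitin. Its core is a barrel of stacked rings, with outer rings of alpha subunits that gate the entrance and inner rings of beta subunits, of which PSMB5, PSMB6 and PSMB7 carry the proteolytic sites. A regulatory particle caps the barrel, with a base of ATPases that unfold and thread the substrate and a lid that removes its ubiquitin chain. The immunoproteasome, typical of cells exposed to interferon, replaces the proteolytic subunits with PSMB8, PSMB9 and PSMB10 and makes peptides suited to MHC class I.

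The values were MAS5 signals on a linear scale. Signals under 100, which were 60.4% of all probe sets on the gefitinib array and 61.6% on the DMSO array, were set to 100. A gene counts as measured if any of its probe sets came to 100 or more with gefitinib or with DMSO, and the brightest such probe set over both arrays was taken for the gene. Of the 42 proteasome genes, 39 were measured, with both signals above 100 at this probe set, among 11223 measured genes in all. PSMB8, PSMB9 and the testis core subunit PSMA8 were below the floor on both arrays. All 6 epithelial markers listed as a check of the cell line were measured, among them EPCAM with a signal of 15823.9 on the gefitinib array and 14038.1 on the DMSO array, while KRT8 and KRT18 had log2 ratios of gefitinib over DMSO of -0.72 and -0.77. Of the markers of other cells, 5 leukocyte genes, including PTPRC, were below the floor on both arrays, as were 5 of 6 fibroblast and 2 of 4 endothelial genes. The fibroblast gene COL1A1 had 950.2 with gefitinib and 420.8 with DMSO, and the endothelial gene VWF 496.0 and PECAM1 78.0 with gefitinib, against 30.0 and 128.4 with DMSO. The part of other cells in the proteasome values was not tested.

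Most proteasome genes had lower signals on the gefitinib array, by less than 2-fold. Of the 39 measured genes, 33 were lower and 6 higher, with a median log2 ratio of gefitinib over DMSO of -0.42, against a median of 0.12 over all measured genes, of which 43.0% were lower. PSMD11, a lid subunit, was the 1 gene at least 2-fold lower, where 6.20% of all measured genes were, and none of the 39 was at least 2-fold higher, where 13.3% of all genes were. At least 1.5-fold lower were 13 (33.3%), where 15.0% of all measured genes were, and at least 1.5-fold higher were 2 (5.13%), PSME1 and PSMD5, where 26.4% of all genes were. At the brightest probe sets, all 13 that were at least 1.5-fold lower belonged to the rings of the core or to the regulatory particle. These structural subunits numbered 27 and had a median of -0.49, with 26 lower. The other 12 genes (activators, inhibitor, chaperones and PSMB10) had a median of -0.05, with 7 lower. Of these 12, the activator PSME3 was at -0.08. The mean over its 4 measured probe sets was -0.92, past 1.5-fold lower.

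**Figure D1:**
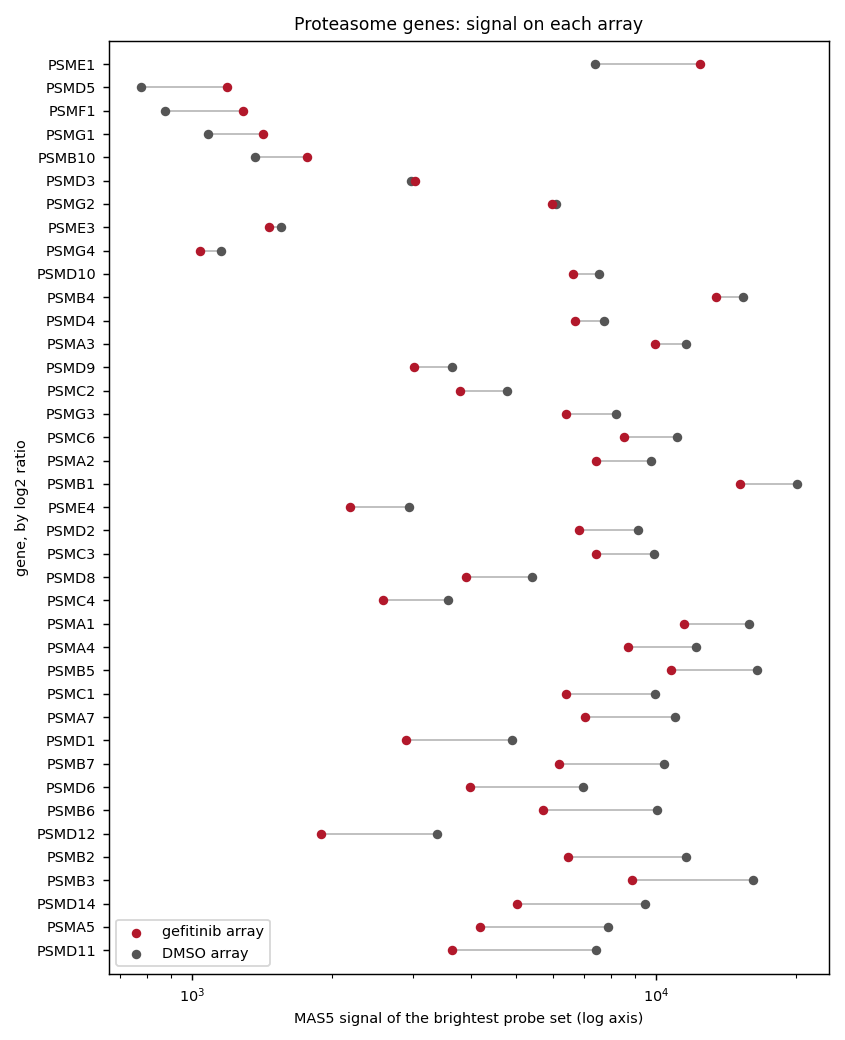
MAS5 signal of the brightest probe set (horizontal log axis) of the 39 measured proteasome genes on the gefitinib array (red) and the DMSO array (grey), 1 array per condition, with the highest log2 ratio at the top. The red point lies to the left in 33 genes and to the right in 6, from PSME1 (log2 ratio 0.75) down to PSMD3 (0.03).

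The size of this shift depends on how the arrays are scaled, while the median stayed below 0 under the 5 scalings tried. The median log2 ratio of the 39 genes was -0.26 with quantile normalization, -0.29 with centring on control probe sets, -0.19 with scaling to GAPDH, -0.60 with scaling to the spike-in transcripts and -0.27 with a lowess correction for signal. The median of all measured genes under these settings was 0.06, 0.24, 0.33, -0.07 and 0.07, and the proteasome median minus that of all genes lay between -0.54 and -0.32. With GAPDH scaling 5 proteasome genes were at least 1.5-fold higher, where 36.0% of all genes were, and 8 at least 1.5-fold lower, where 9.56% were. With spike-in scaling these counts were 0, where 19.8% of all genes were, and 21, where 21.7% were. As deposited and under each of the 5 scalings, 26 genes were lower, 5 were higher (PSMB10, PSMD5, PSME1, PSMF1 and PSMG1) and 8 changed sign, namely PSMA3, PSMB4, PSMD3, PSMD4, PSMD10, PSME3, PSMG2 and PSMG4.

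The ratio also moved with the signal over all genes. When the measured genes were divided into 10 groups of equal size by mean log2 signal, the median log2 ratio of all genes was 0.51 in the group next to the dimmest and -0.18 in the brightest, where 65.2% of genes were lower. The brightest group held 23 of the 39 proteasome genes, and 22 of these were lower, with a median of -0.42. In it 9 proteasome genes were at least 1.5-fold lower, where 16.5% of the 1123 genes of that group were. The group next to it held 7, all lower with a median of -0.47, against a median of -0.06 over its genes. The dimmest proteasome genes were 4 in group 6, counted from the dimmest, with a median of 0.47 against 0.13 over its genes, and 3 of the 6 genes that were higher (PSMD5, PSMF1 and PSMG1) were among them. The part of this trend in each gene's ratio was not tested beyond the quantile and lowess settings.

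**Figure D2:**
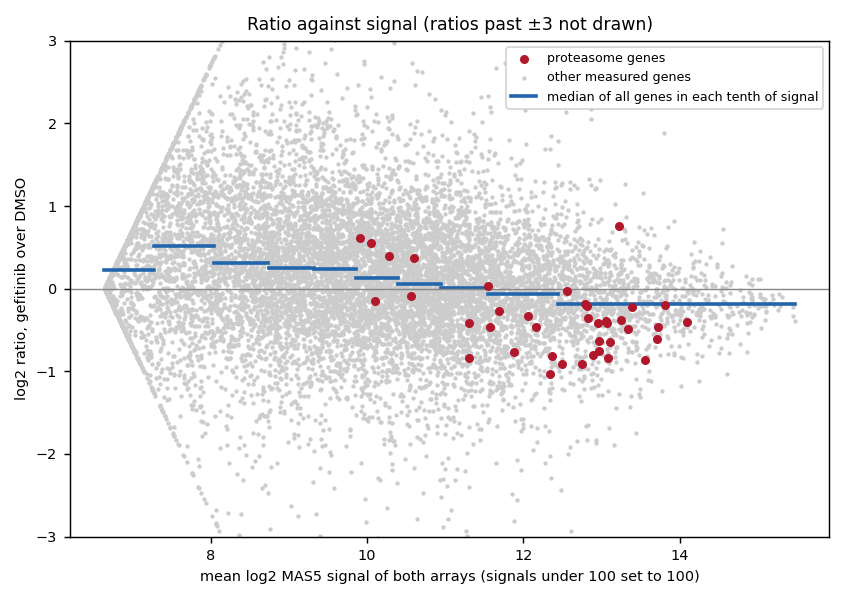
Log2 ratio of gefitinib over DMSO (vertical axis) against the mean of both log2 MAS5 signals (horizontal axis) for the proteasome genes (red) and the other measured genes (grey), with the median of all genes in each of 10 groups by signal as blue bars and ratios past ±3 not drawn. Of the 23 red points in the brightest group, 22 are below 0, and the blue bar there is at -0.18.

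All 6 measured alpha subunits of the outer rings were lower on the gefitinib array as deposited, except that PSMA3 was at 0.01 with quantile normalization and with GAPDH scaling. Their median log2 ratio was -0.48, between -0.92 and -0.22, and -0.67 to -0.25 over the scalings. PSMA5 had a signal of 4174.4 with gefitinib and 7885.8 with DMSO at its brightest probe set, 1.89-fold lower (log2 ratio -0.92). A second, dim PSMA5 probe set went the other way, at 156.3 with gefitinib and 29.4 with DMSO, at least 1.56-fold higher. PSMA7 had 7017.4 with gefitinib and 10995.5 with DMSO, 1.57-fold lower. PSMA1, PSMA2 and PSMA4 had log2 ratios of -0.47, -0.39 and -0.49, and PSMA1 was lower at each of its 3 measured probe sets. PSMA3 had the smallest difference of the ring at its brightest probe set (-0.22), while its other measured probe set, at 107.5 with gefitinib and 395.7 with DMSO, had a log2 ratio of -1.88.

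All 7 beta subunits of the inner rings were lower too as deposited, except that PSMB4 was at 0.02 with GAPDH scaling. Their median was -0.76, between -0.87 and -0.20, and -0.95 to -0.53 over the scalings. PSMB3, which has no proteolytic site, had 8878.9 with gefitinib and 16201.6 with DMSO, 1.82-fold lower. PSMB2, also without one, had 6466.5 with gefitinib and 11617.4 with DMSO, 1.80-fold lower (log2 ratio -0.85), and its dim probe sets had log2 ratios of -0.98 and -0.35. The 3 proteolytic subunits were lower by similar ratios. PSMB6, the caspase-like site, had 5722.9 with gefitinib and 10026.5 with DMSO, 1.75-fold lower. PSMB7, the trypsin-like site, had 6173.3 with gefitinib and 10427.9 with DMSO, 1.69-fold lower. PSMB5, the chymotrypsin-like site that bortezomib blocks, had 10784.4 with gefitinib and 16515.9 with DMSO, 1.53-fold lower. PSMB1 and PSMB4 had the smallest ratios of the ring, -0.40 and -0.20, and each was lower at all of its measured probe sets.

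In the base of the regulatory particle, all 5 measured ATPases were lower under every scaling, as deposited within a narrow range from -0.63 to -0.33 and with a median of -0.42. PSMC1 had 6398.1 with gefitinib and 9927.3 with DMSO, 1.55-fold lower, and the ratios of PSMC3, PSMC4 and PSMC6 were -0.42, -0.47 and -0.38. PSMC2 was lower at its brightest probe set (-0.33) and higher at its other measured probe sets, with 500.5 with gefitinib and 329.1 with DMSO at the first (0.60) and 154.7 with gefitinib and 48.6 with DMSO at the second, at least 1.55-fold higher. Of the base subunits without ATPase activity, the scaffold PSMD1 had 2890.8 with gefitinib and 4904.5 with DMSO, 1.70-fold lower, and -0.90 at its other probe set. The scaffold PSMD2 had a log2 ratio of -0.42, and the ubiquitin receptor PSMD4 had -0.21, with 0.05 and -0.48 at its other measured probe sets.

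The lid held the lowest ratio of all proteasome genes, that of PSMD11. Its 6 measured subunits had a median of -0.82, between -1.03 and 0.03. PSMD11, a scaffold subunit of the lid, had 3633.3 with gefitinib and 7422.5 with DMSO at its brightest probe set, 2.04-fold lower (log2 ratio -1.03). At its other probe set PSMD11 had 520.7 with gefitinib and 510.9 with DMSO (0.03), so the count of 1 gene past 2-fold rests on 1 of 2 probe sets. PSMD14, the metalloprotease that cuts off the ubiquitin chain, had 5019.9 with gefitinib and 9457.6 with DMSO, 1.88-fold lower. PSMD12 had 1894.5 with gefitinib and 3377.4 with DMSO at its brightest probe set, 1.78-fold lower, and had a log2 ratio of 0.02 at its other probe set. PSMD6 had 3978.6 with gefitinib and 6971.7 with DMSO, 1.75-fold lower, and PSMD8 a log2 ratio of -0.47. PSMD3 was the only structural subunit that was not lower, with 3022.6 with gefitinib and 2965.9 with DMSO at a single probe set (0.03). Of the scalings, spike-ins alone put it below 0 (-0.16).

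**Figure D3:**
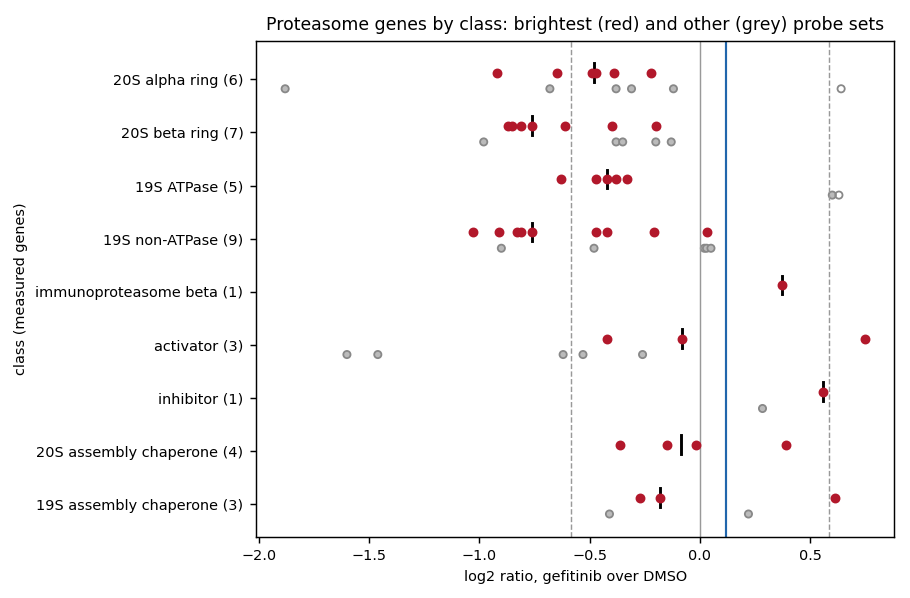
Log2 ratio of gefitinib over DMSO (horizontal axis) of the measured proteasome genes by class, with the number of genes in parentheses. Red points are the brightest probe set of each gene, grey points its other measured probe sets (open where 1 signal is under the floor), black bars class medians, dashed lines 1.5-fold and the blue line the median of all measured genes (0.12). The medians of both core rings, of the ATPases and of the other regulatory subunits lie between -0.76 and -0.42.

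Apart from PSMD3, the genes that were higher lay outside the rings and the regulatory particle. PSME1, a subunit of the activator that interferon induces and that opens the core without ATP, had 12431.1 with gefitinib and 7372.0 with DMSO at its 1 probe set, 1.69-fold higher (log2 ratio 0.75). Its value ran from 0.56 to 0.98 over the scalings, and it was the 1 gene of the 23 in the brightest signal group that was higher. The nuclear activator PSME3 had 1467.0 with gefitinib and 1554.8 with DMSO at its brightest probe set (log2 ratio -0.08). Its 3 other probe sets were lower by more, with 334.5 with gefitinib and 1011.0 with DMSO at one of them (-1.60), and -1.46 and -0.53 at the rest. PSME4, a nuclear activator tied to the breakdown of histones, was lower at each of its 3 probe sets, between -0.62 and -0.26. PSMF1, which inhibits the core in vitro, had 1287.1 with gefitinib and 875.8 with DMSO, 1.47-fold higher (0.56), and had a log2 ratio of 0.28 at its other measured probe set.

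Of the immunoproteasome subunits, 1 of 3 was measured. PSMB10 had 1768.4 with gefitinib and 1366.4 with DMSO, 1.29-fold higher (log2 ratio 0.37), while PSMB7, whose place it takes, was lower (-0.76), a difference of 1.13 between their ratios. This difference was between 0.92 and 1.13 over the scalings. PSMB8 had a signal of 3.5 with gefitinib and 1.9 with DMSO at its 1 probe set, and PSMB9 had 55.3 with gefitinib and 36.3 with DMSO. Both are under the floor, so no ratio to PSMB5 and PSMB6 was taken.

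The chaperones that assemble the particle lay on both sides of 0. Those of the core had a median of -0.09, with PSMG1 at 1424.0 with gefitinib and 1083.8 with DMSO (log2 ratio 0.39), PSMG2 at -0.02, PSMG3 at -0.36 and PSMG4 at -0.15. PSMG1 and PSMG2 form the heterodimer that starts the alpha ring. Those of the regulatory base had a median of -0.18, with PSMD5 at 1190.1 with gefitinib and 778.4 with DMSO, 1.53-fold higher (0.61), and PSMD9 and PSMD10, also known as gankyrin, at -0.27 and -0.18. The signs of both medians turned with GAPDH scaling, to 0.14 for the core and 0.04 for the base.

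Of 65 measured probe sets of the proteasome genes, 51 were lower and 14 higher. In the absence of replicates, the agreement of probe sets of the same gene gives the spread of the measurement, though not that between cultures. Between probe sets of the same gene, log2 ratios had an SD of 0.50 over the 18 proteasome genes with more than 1 measured probe set and 0.58 over 5432 genes of the array. Of these 18 genes, 12 had all probe sets on the same side. The other 21 measured genes rest on 1 probe set each. The differences of most single genes are therefore of the order of this spread.

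The bases just before the start sites of the genes at the ends of the order are shown here, as examples. RefSeq promoter sequences (GRCh38.p14) from 250 bases before to 50 after the start were at hand for 33 of the 39 measured genes. Both strands were searched for the CCAAT box (CCAAT, bound by NF-Y), the GC box (GGGCGG), an ETS motif (CCGGAAG), the antioxidant response element (TGACNNNGC, bound by NFE2L1 and NFE2L2) and an IRF motif (AANNGAAA), and no motif contains another. The 100 bases before the start follow for the 4 lowest genes and PSME1, the highest, 5′ to 3′ on the gene's strand, with CCAAT, ETS and antioxidant matches on either strand in capitals.

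PSMD11, chr17:32444410-32444509, plus strand: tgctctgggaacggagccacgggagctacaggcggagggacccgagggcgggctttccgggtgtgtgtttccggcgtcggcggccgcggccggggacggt
PSMA5, chr1:109426449-109426548, minus strand: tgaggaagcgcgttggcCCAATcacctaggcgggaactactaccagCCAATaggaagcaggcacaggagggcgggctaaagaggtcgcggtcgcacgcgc
PSMD14, chr2:161308325-161308424, plus strand: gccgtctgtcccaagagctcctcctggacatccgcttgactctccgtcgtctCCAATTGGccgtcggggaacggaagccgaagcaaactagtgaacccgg
PSMB3, chr17:38752641-38752740, plus strand: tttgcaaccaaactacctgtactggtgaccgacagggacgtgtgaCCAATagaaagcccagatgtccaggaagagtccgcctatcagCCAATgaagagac
PSME1, chr14:24136094-24136193, plus strand: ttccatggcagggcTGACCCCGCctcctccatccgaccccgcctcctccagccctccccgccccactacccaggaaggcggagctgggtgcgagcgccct

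This stretch held 2 CCAAT matches in PSMA5, PSMD14 (overlapping, on opposite strands) and PSMB3, none of the capitalised motifs in PSMD11, and an antioxidant match in PSME1. The same stretch of the next highest genes, PSMD5, PSMF1, PSMG1 and PSMB10, held none of the capitalised motifs. In the whole window the CCAAT box was found in 12 of 22 structural subunits (54.5%) and 3 of 11 other proteasome genes (27.3%), against 36.9% of 9269 measured genes and 35.7% of all 27305 promoters. The antioxidant element was found in 5 structural subunits (22.7%) and 6 others (54.5%), against 15.5% of measured genes and 13.6% of all promoters. The ETS motif was in 10 of the 33 (30.3%), against 20.2% of measured genes and 10.7% of all promoters, and the IRF motif in 11 (33.3%), against 15.8% and 23.2%. The GC box was in 20 (60.6%), against 70.8% of measured genes and 44.6% of all promoters. Proteasome genes with a CCAAT box had a median log2 ratio of -0.42 and those without -0.40, and these medians were -0.44 and -0.20 for the GC box, -0.44 and -0.39 for the ETS motif, -0.27 and -0.42 for the antioxidant element and -0.33 and -0.42 for the IRF motif. A match describes the letters only.

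Partners of the proteasome that lie outside the naming rule had a median of -0.21, with 7 of 13 measured genes lower, and a median of 0.01 with GAPDH scaling. At least 1.5-fold higher was 1 (7.69%, against 26.4% of all genes) and at least 1.5-fold lower were 3 (23.1%, against 15.0%). With GAPDH scaling these counts were 2 and 1, against 36.0% and 9.56% of all genes. With spike-ins they were 0 and 5, against 19.8% and 21.7% of all genes. AKIRIN2, which brings the proteasome into the nucleus, had 2443.8 with gefitinib and 5450.2 with DMSO, 2.23-fold lower, and was lower at all of its measured probe sets. The ubiquitin receptor ADRM1 had 3045.8 with gefitinib and 4993.9 with DMSO, 1.64-fold lower. ZFAND5, a stimulator of the particle, had 16249.7 with gefitinib and 10355.5 with DMSO, 1.57-fold higher, though a further probe set had a log2 ratio of -0.45. POMP, which matures the core and was chosen after its value was seen, had 7838.7 with gefitinib and 11794.7 with DMSO (-0.59). The other measured probe set of POMP had a log2 ratio of -0.18.

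Genes known to regulate proteasome transcription had a median of -0.07 over 9 measured genes, of which 3 (33.3%) were at least 1.5-fold lower, where 15.0% of all genes were, and none that much higher, where 26.4% were. With GAPDH scaling these counts were 2 and 1, against 9.56% and 36.0% of all genes. The median of these regulators was above 0 with quantile (0.05), control (0.06), GAPDH (0.15) and lowess (0.04) settings. NFE2L1, the factor that restores proteasome genes when the particle is blocked, had 5811.2 with gefitinib and 6109.9 with DMSO (log2 ratio -0.07), and up to 0.51 at its other probe sets. NFE2L2 had 6722.2 with gefitinib and 5536.8 with DMSO (0.28), and -0.44 at its other measured probe set. Both were named outside the rule of size. Of the small MAF proteins that pair with them, MAFF and MAFG were measured and both were lower, MAFF at 1096.8 with gefitinib and 5798.0 with DMSO, 5.29-fold lower, and MAFG 1.54-fold lower. NFYA, the subunit of NF-Y that reads the CCAAT box, had 312.8 with gefitinib and 561.6 with DMSO (-0.84), with probe sets between -1.49 and 0.04. Of the ubiquitin genes, the E1 enzymes UBA1 and UBA6 had log2 ratios of 0.24 and 0.25, though a further UBA6 probe set had -0.84. Shuttle factors and the VCP complex had a median of -0.27, with 1 of 11 measured genes, UFD1, at least 1.5-fold lower (9.09%, against 15.0% of all genes). UFD1 had 6855.1 with gefitinib and 12642.1 with DMSO (log2 ratio -0.88). With GAPDH scaling the median was -0.05, and with spike-ins 4 were at least 1.5-fold lower, against 21.7% of all genes. UBQLN1 and UBQLN4 followed at -0.57 and -0.49, though UBQLN4 had 0.17 at its other measured probe set.

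Genes that load peptides on MHC class I, with their regulators, had a median of 0.22, with 8 of 10 measured genes higher, where 57.0% of all genes were. At least 1.5-fold higher were 3 (30.0%), near the 26.4% of all genes, and none was lower by that much. The list had a median of 0.03 with 5 higher under spike-in scaling. ERAP1, which trims peptides, had 693.3 with gefitinib and 329.5 with DMSO, 2.10-fold higher, with a further probe set at -0.58. TAPBP, or tapasin, had 7271.7 with gefitinib and 4032.9 with DMSO, 1.80-fold higher, with a further probe set at -0.22. IRF1, a factor that induces PSMB8, PSMB9 and PSME1, had 929.6 with gefitinib and 510.0 with DMSO, 1.82-fold higher. The transporters TAP1 and TAP2, whose genes adjoin PSMB8 and PSMB9 and which were named for that reason after their values were seen, had log2 ratios of 0.06 and 0.02.

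Other complexes had lower ratios too. All 10 measured genes of the COP9 signalosome, a relative of the lid, were lower as deposited and 9 with GAPDH scaling, with a median of -0.42 and COPS8 (-0.85), COPS6 (-0.67) and COPS3 (-0.62) at least 1.5-fold lower (30.0%, against 15.0% of all genes). This count was 1 with GAPDH scaling or control probe sets, against 9.56% and 11.4% of all genes, and 6 with spike-ins, against 21.7%. These signs and counts rest on the brightest probe sets. Further probe sets had 0.10 for COPS7B, up to -0.30 for COPS8 and -0.80 for COPS2 (-0.24 at its brightest). Of 12 measured eIF3 genes, another relative of the lid, 9 were lower as deposited (median -0.21) and 5 with GAPDH scaling (median 0.02). As deposited 1, EIF3I (-0.71), was at least 1.5-fold lower (8.33%, against 15.0% of all genes). EIF3D and EIF3G followed at -0.56 and -0.43. All 7 measured genes of the CCT chaperonin, which folds actin and tubulin, were lower under every scaling, with a median of -0.83 as deposited. At least 1.5-fold lower were all 7 as deposited, against 15.0% of all genes, and 4 with GAPDH scaling, against 9.56%. They were led by CCT5 (-1.28, and 0.11 at its other probe set), CCT7 (-0.99) and CCT4 (-0.83, and -0.34 at its other probe set). No difference between these complexes and the proteasome was tested.

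**Figure D4:**
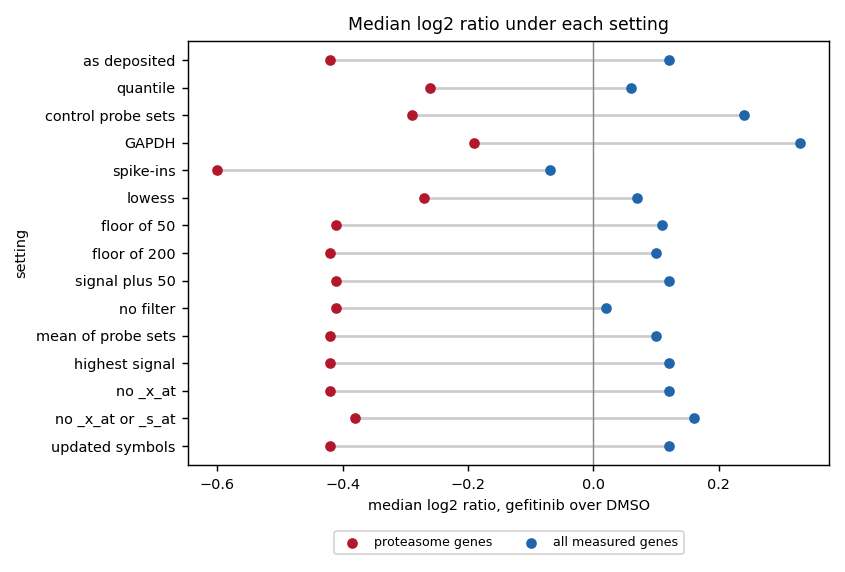
Median log2 ratio of gefitinib over DMSO (horizontal axis) of the measured proteasome genes (red) and of all measured genes (blue) as deposited and under 14 alternative settings. The red point lies below 0 and to the left of the blue point in every row, between -0.60 with spike-in scaling and -0.19 with GAPDH scaling.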

How the data were processed

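RNA of H322c cells after 4 days with 1 µM gefitinib or 0.1% DMSO was measured on Affymetrix U133 Plus 2.0 arrays, 1 per condition. The authors deposited signal intensities on a linear scale. The submitters' processing notes name MAS5 without a version, a method with background subtraction, mismatch correction and a single scaling factor per array. The 2% trimmed mean was 500 on both arrays, so a shift of most transcripts to 1 side would be removed.

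Of 54675 probe sets, the platform annotation gave 41097 a single gene, 1801 several and 11777 none. Only the first were used, and 41043 matched the GRCh38.p14 gene table, which updated gene names after the members had been chosen by the annotated symbol. Signals were floored at 100. No p-value was computed. Values on both arrays are given for the 6 highest and 6 lowest proteasome genes by log2 ratio, all genes past 1.5-fold, the immunosubunits and those they replace, and genes whose probe sets differ in sign by over 1 log2 unit, with up to 3 genes of each other list by size. Others were added after their values were seen. The members and lists were chosen with earlier results of these data known. Of 48 proteasome genes in the class list, 6 had no probe set listed under their symbol alone and were not analysed here. These were PSMA6, PSMB11, PSMC5, PSMD7, PSMD13 and PSME2. The procedure was tested on simulated data. Python 3.11.15, numpy 2.4.6, pandas 2.3.3, statsmodels 0.14.6 and matplotlib 3.10.9 were used. The 14 alternatives covered 5 scalings, the floor (50 or 200), 50 added to the signal, the low-signal filter, the choice of probe set and the symbols. Lowess used a span of 0.3.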

Additional observations from a re-analysis of the deposited data

How the results depend on the processing

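No paired analysis was possible because there was 1 array per condition. The median of the measured proteasome genes stayed below 0 under all 14 alternatives, between -0.60 and -0.19, and no proteasome gene was at least 2-fold higher under any of them. An alternative was taken as moving a value where it differed by more than the spread between probe sets of 1 gene (0.58, divided by the square root of the number of genes for a median), or a count by over 1.5 times. The median over the 39 genes moved to -0.26 with quantile normalization, -0.29 with control probe sets, -0.19 with GAPDH, -0.60 with spike-ins and -0.27 with lowess. The number at least 2-fold lower was 0 with quantile, control, GAPDH and lowess settings and without _x_at and _s_at probe sets, 2 without _x_at probe sets and 6 with spike-ins. The share of all genes at 2-fold was taken only as deposited, where 6.20% were at least that much lower. The number at least 1.5-fold lower was 8 with GAPDH (9.56% of all genes there), 21 with spike-ins (21.7%) and 7 without _x_at and _s_at probe sets (14.0%), where 27 proteasome genes were left. The number at least 1.5-fold higher was 1 with quantile (23.0% of all genes there), lowess (23.5%), 50 added to the signal (26.1%) or no filter (16.8%). It was 5 with GAPDH (36.0%) and 0 with spike-ins (19.8%).

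By class, the beta ring had -0.53 with GAPDH, and the regulatory subunits without ATPase activity had -0.54 with GAPDH, -0.47 with the mean of probe sets and -0.44 without _x_at and _s_at probe sets. The activators had 0.04 with control probe sets, 0.14 with GAPDH, 0.17 without _x_at and _s_at, -0.43 with the mean of probe sets and -0.42 without _x_at. The core chaperones turned to 0.04 with control probe sets and 0.14 with GAPDH, and the base chaperones to 0.04 with GAPDH and 0.10 without _x_at and _s_at. PSMD11 turned to 0.03 without _x_at and _s_at, where only its dimmer probe set was left, and PSMC2 (-0.33 as deposited) was at 0.60 there and at 0.30 with the mean of probe sets. With that mean, PSMA5 was at -0.14, PSMA3 at -1.05 and PSME3 at -0.92, and PSME3 was at -1.60 without _x_at. Scalings shift every gene by their own construction. The median of all genes moved by over 0.1 with control probe sets (0.12), GAPDH (0.21) and spike-ins (-0.18). The cause of the other changes was not tested. Updating symbols changed no value.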
